A study of Homo sapiens with 35 samples.

Results

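THP-1 is a human acute myeloid leukaemia line with monocytic features, and the comparison described here sets its SUV39H1/SUV39H2 double knockout (DKO) against its SUV39H1 single knockout (SKO). The 6 libraries, 3 per genotype, were chosen by their titles from the 35 polyA RNA-seq libraries of a study of AML lines with sgControl, SKO and DKO derivatives. Library names give guide sgSUV39H1-3 for SKO and sgSUV39H1-3 with sgSUV39H2-1 for DKO, so all 6 libraries share the SUV39H1 guide. SKO and the 3 THP-1 sgControl libraries used as a reference carry clone number 1 and one shared numeric code in their names, and DKO carries another code and no clone number. No treatment is labelled, and the lines were grown in RPMI-1640 with serum, for THP-1 with BME added. The 6 untreated U937 SKO and DKO libraries of the same table, from another monocytic AML line, were used to ask where the DKO against SKO difference itself differed between lines. U937 DKO is named for sgSUV39H1-3 with sgSUV39H2-3 and clone 3, so the SUV39H2 guide is not the same in both lines. U937 SKO names carry a numeric code and no clone number, whereas U937 DKO names carry no such code. Name code and clone label thus change with genotype in U937 too.

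SUV39H1 and SUV39H2 are paralogous enzymes that place the tri-methyl mark on lysine 9 of histone H3. The mark is bound by HP1 proteins and is typical of constitutive heterochromatin at centromeres, telomeres and transposable elements, and of some silenced genes. A cell that lacks only one of the enzymes keeps the other, so the step from SKO to DKO is a step to a cell edited at both genes.

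Total counted reads were 56881318 to 61178704 in SKO, 51181859 to 60222776 in sgControl and 31985767 to 38678090 in DKO, and the groups did not overlap between SKO and DKO. Name code, clone label and depth change together with genotype, so their parts in any difference cannot be told apart from the second knockout. Replicate pairs within SKO and DKO differed by more than sampling noise, and no label says whether they were cultured apart. The p-values therefore cover library-to-library spread that could be purely technical. Monocytic markers were expressed in all 6 libraries, with CD33 at 71.4 to 86.7 CPM (the share of a library's reads, scaled to a fixed total), LYZ at 250.5 to 501.7 CPM and SPI1 at 173 to 225 CPM. HOXA9 reached 43.3 CPM, whereas MEIS1 (at most 0.103 CPM) and CD68 (at most 0.336 CPM) were near 0. MS4A1 had 0 reads, and CD3E, GATA1, HBB and EPCAM were at or under 0.172 CPM. Library sums of the marker lists of other cells were also taken: the lymphoid list was at 208.5 to 219.8 CPM in SKO and 205 to 212 CPM in DKO, which overlap, the dendritic list at 260.4 to 275 CPM in SKO and 219 to 229 CPM in DKO, and the megakaryocyte list was at 53.5 to 61.2 CPM in SKO and 72.7 to 76.3 CPM in DKO. Stromal and epithelial markers summed to 412 to 430.2 CPM in SKO and 560.2 to 581 CPM in DKO, mostly from PECAM1, which is at 382 to 521 CPM, and their part in the results was not tested.

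Changes in RNA abundance between DKO and SKO were very broad. Of 18585 genes tested, 10001 (53.8%) differed at an adjusted p under 0.05 (edgeR's quasi-likelihood test, Benjamini-Hochberg), 4708 (25.3%) higher and 5293 (28.5%) lower in DKO. Large changes were mostly increases: 1935 genes (10.4%) rose at least 2-fold and 298 (1.6%) fell at least 2-fold. Much of this excess was in genes with a mean log2 CPM under 0, where 1080 rose and 108 fell at least 2-fold. A gene near 0 in SKO can hardly fall. Over a mean log2 CPM of 4, 124 rose and 62 fell at least 2-fold. The direction depended on how abundant a gene was. Of 7694 genes with a mean log2 CPM over 4, 21.7% were higher and 53.6% lower, with a median log2 fold change of -0.165. Of 5315 genes with a mean log2 CPM under 0, 20.6% were higher and 2.22% lower, with a median of 0.652, against 0.051 over all genes tested. Protein-coding genes, 24.9% higher and 37.3% lower of 13577, had a median of -0.061, while long non-coding genes (313 higher, 28 lower of 986) and pseudogenes (237 higher, 52 lower of 859) had few lower members. Protein-coding genes with a mean log2 CPM under 0 also had few, with 465 higher and 81 lower of 1990 and a median of 0.537. Gene types were not matched for level, so type and level are not told apart here. DKO libraries are the shallower ones, and with all counts thinned to the smallest library 4834 genes were higher and 4957 lower of 16782. In CPM, DKO lay above SKO without overlap for 31.1% of genes and below it without overlap for 30.8%. Fewer cells of a type and less RNA per cell cannot be told apart in these bulk libraries.

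**Figure D1:**
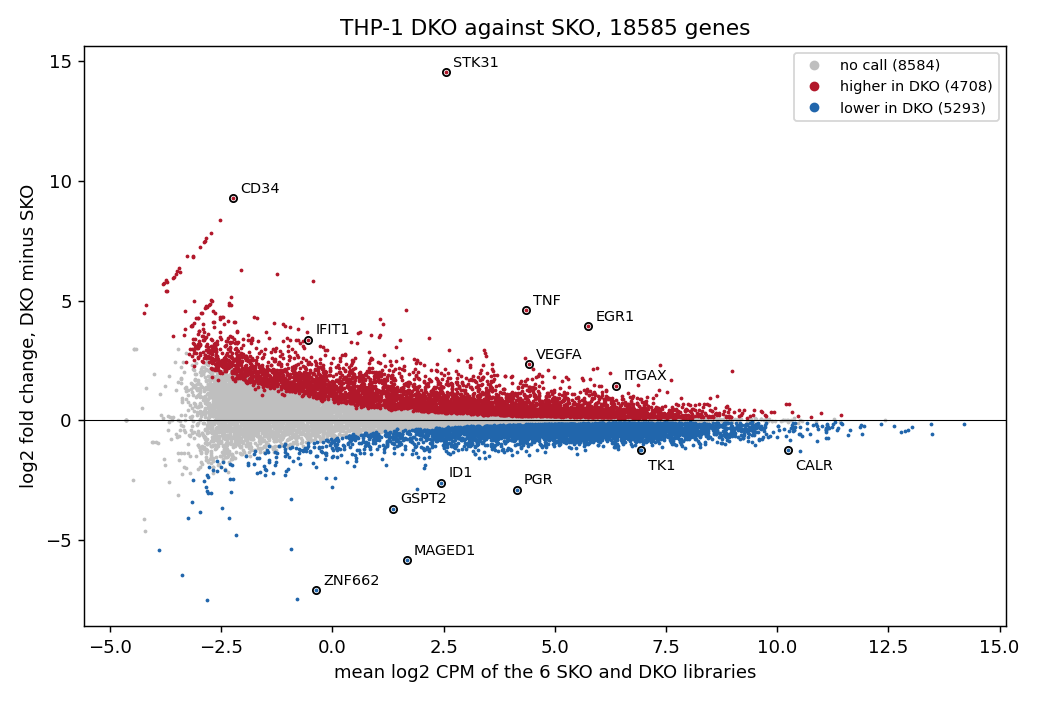
Log2 fold change of DKO against SKO (vertical axis) by mean log2 CPM of the 6 libraries (horizontal axis) for 18585 genes, each a point, coloured by the call of edgeR's quasi-likelihood test. Increases reach far above 5 on the log2 scale at low and middle abundance, with STK31 at 14.54, whereas most genes at the right edge are slightly below 0. The fitted value of CD34 rests on SKO libraries with 0 reads.

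The targeted genes were still transcribed. SUV39H1 (X:48695554-48709016, hg38) was at 97.1, 87.3 and 92.8 CPM in SKO and 57.7, 56.7 and 56.7 CPM in DKO, with a mean of 33.9 CPM in sgControl. DKO was below SKO and above sgControl without overlap, with a log2 fold change of -0.70 ± 0.05 (SE) against SKO (adjusted p = 3.37e-12, edgeR). SUV39H2 (10:14878820-14904315) was at 20.6, 18.8 and 20.0 CPM in SKO and 14.8, 14.3 and 13.5 CPM in DKO, a log2 fold change of -0.48 ± 0.07 (adjusted p = 2.36e-06, edgeR). Its sgControl mean was 30.6 CPM, so its level was lowest in DKO but far from 0. Gene-level counts do not show whether the transcripts carry the edits, so they check the labels only in part.

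The largest change of the genes tested was in STK31 (7:23710203-23832513), a Tudor-domain kinase gene that is normally expressed in the germline. It had 0, 0 and 4 reads in SKO and 25760, 21540 and 23965 reads in DKO. In CPM this is at most 0.0687 in SKO against 608, 617 and 618 in DKO, and at most 0.285 in sgControl. The groups were far apart and the 3 DKO libraries close together, with a log2 fold change of 14.54 ± 0.15 (adjusted p = 3.38e-33, edgeR). In U937 it had 0 reads in every SKO and DKO library. Within 1 Mb on either side, 19 other genes were tested, of which 5 were higher and 4 lower, shares near the 25.3% and 28.5% of all genes. None of these neighbours had a log2 fold change above 2.58 or below -1.26, and the nearest upstream gene, FAM221A, had means of 2.17 and 3.00 CPM, a call that was lost in 7 other fits. The sequence before the earliest annotated start is shown because the gene went from almost no reads to many. It covers bases 250 to 138 before the start site of the promoter table, since RefSeq annotates an earlier start of the gene just after it; capitals mark CpG dinucleotides, the substrate of DNA methylation. It is from RefSeq's GRCh38.p14 promoter table, plus strand, chr7:23709969-23710081.

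STK31 upstream: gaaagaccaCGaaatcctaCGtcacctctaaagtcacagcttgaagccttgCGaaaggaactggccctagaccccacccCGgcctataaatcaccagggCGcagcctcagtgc

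The whole stretch of 250 bases before the RefSeq start site holds 19 CpGs, more than 65.7% of the 27305 promoters in that table, whose median is 11.

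Only 3 genes met the rule of under 0.1 CPM in every SKO library and at least 1 CPM in every DKO library. Beside STK31 these were CCL4L2, a chemokine gene copy on 17, with 2.08, 2.49 and 3.09 CPM in DKO, and the long non-coding LINC02153 on 8, with 1.01, 1.00 and 1.29 CPM in DKO. The reverse rule was met by 1 gene, which is not described here. CCL4L2 has near-identical neighbours, so its reads are uncertain. CD34 (1:207880972-207911402), the surface marker of blood progenitors, had 0 reads in all SKO libraries and 14, 40 and 124 reads in DKO, at least 87.7-fold higher with a floor of 3 reads over the SKO group. The DKO libraries also differed among themselves, at 0.330, 1.15 and 3.20 CPM. Of the germline list, 14 of 44 genes passed the filter on low counts and 22 had 0 reads in all 6 libraries. No count over the 14 is read, because genes such as STK31 passed that filter through DKO alone. The list's summed level was 165 to 169.6 CPM in SKO and 820.0 to 835.5 CPM in DKO, and most of that difference was STK31. PIWIL4, a PIWI family gene, rose from a mean of 61.8 to 113 CPM, and MAGEB2, of the MAGE family, fell from 36.8 to 22.3 CPM. PIWIL2, a partner of piRNAs, went from a mean of 0.079 to 0.900 CPM.

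The deepest decreases included 2 adjacent genes on the X chromosome. MAGED1 (X:51803007-51902354), which encodes an adaptor of the MAGE family, was at 22.4, 23.7 and 26.0 CPM in SKO and 0.283, 0.286 and 0.670 CPM in DKO. GSPT2 (X:51743442-51746232), a translation termination factor gene just before it, was at 8.66, 8.21 and 10.5 CPM in SKO and 0.660, 0.573 and 0.876 CPM in DKO. In sgControl they were at 32.8 and 7.56 CPM, so DKO alone of the THP-1 groups was low. The log2 fold changes were -5.85 ± 0.15 for MAGED1 and -3.69 ± 0.17 for GSPT2 (adjusted p = 4.59e-23 and 8.00e-17, edgeR). Of the 5 other tested genes within 1 Mb of MAGED1, GSPT2 was the one that fell. SHROOM4 and the near-identical copies XAGE1A and XAGE1B, both under 1 CPM, had higher calls that did not hold in several other fits. The XAGE1A call was lost with all 18 libraries in the fit (adjusted p = 0.058, edgeR). In U937, MAGED1 had 3109, 3248 and 2559 reads in sgControl, 18, 14 and 28 in SKO and 8, 12 and 6 in DKO. There the drop was thus already present in the single knockout. Sequences before the 2 start sites are shown for this pair that fell together (RefSeq, GRCh38.p14, plus strand; chrX:51802826-51803006 and chrX:51743192-51743441), again with CpGs in capitals.

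MAGED1 upstream: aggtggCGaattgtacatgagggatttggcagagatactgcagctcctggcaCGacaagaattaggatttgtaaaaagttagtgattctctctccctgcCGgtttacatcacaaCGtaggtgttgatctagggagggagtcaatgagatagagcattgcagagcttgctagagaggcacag
GSPT2 upstream: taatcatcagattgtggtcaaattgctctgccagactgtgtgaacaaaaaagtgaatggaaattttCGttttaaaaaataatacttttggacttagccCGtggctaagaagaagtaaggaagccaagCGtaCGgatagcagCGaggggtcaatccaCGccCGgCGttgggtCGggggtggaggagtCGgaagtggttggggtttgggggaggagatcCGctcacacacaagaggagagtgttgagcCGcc

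In 250 bases before the start site, MAGED1 holds 6 CpGs and GSPT2 holds 12. ZNF662 (3:42906142-42919334), a zinc finger gene, was likewise lost, from 6.05, 8.13 and 8.09 CPM in SKO to 0, 0.0573 and 0.103 CPM in DKO. Of 19 other tested genes within 1 Mb, 6 were higher and 6 lower, shares near those of all genes. On one side the nearest tested gene, ACKR2, was at -0.11 ± 0.13 with no call, and on the other GASK1A fell by 1.33 ± 0.32 and POMGNT2 by 0.75 ± 0.11 on the log2 scale.

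Further genes with large decreases were of several kinds. PGR, the progesterone receptor gene on 11, was at 48.0, 46.8 and 50.2 CPM in SKO and 6.49, 6.44 and 6.39 CPM in DKO, a log2 fold change of -2.91 ± 0.07. ID1 and ID3, which encode inhibitors of basic helix-loop-helix factors, fell by 2.60 ± 0.12 and 1.61 ± 0.20 on the log2 scale. SIX3, a homeobox gene, fell by 2.87 ± 0.17, and WNT7B, a Wnt ligand gene, by 1.56 ± 0.09. For PGR, SIX3, ID1 and WNT7B the SKO level was itself below sgControl, at 48.4 against 75.0, 10.5 against 20.4, 13.4 against 39.0 and 18.6 against 45.8 CPM, so that DKO was the lowest of the 3 groups.

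**Figure D2:**
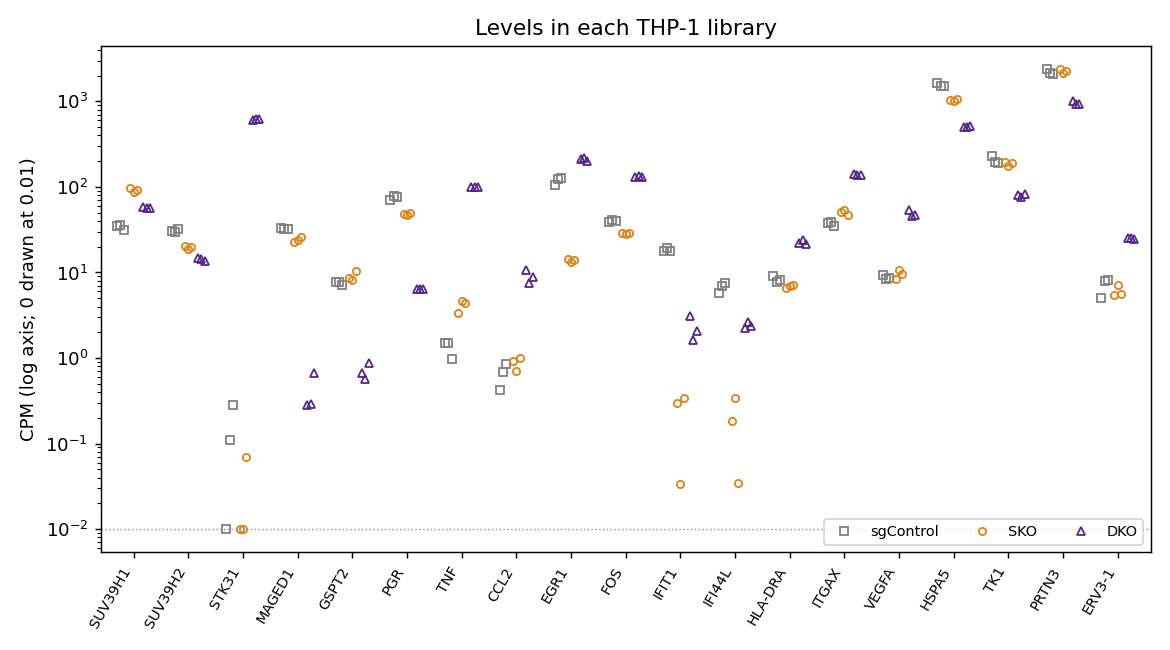
CPM on a log axis of 19 genes in each of the 9 THP-1 libraries, with sgControl as squares, SKO as circles and DKO as triangles; a value of 0 is drawn at 0.01. STK31 stands at 608 to 618 CPM in DKO only, MAGED1 and GSPT2 are low only in DKO, and EGR1, IFIT1 and IFI44L are lowest in SKO.

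Inflammatory and immediate early genes were among the largest increases. Of the 29 tested genes of the NF-kB list, which holds cytokines, chemokines and pathway members, 15 rose and 4 fell, with a median of 0.537 against 0.051 over all genes. Counts of this list and of those below stand against 25.3% of all genes higher and 28.5% lower. Of the 29, 6 have a mean log2 CPM under 0 and 6 one of 0 to 2. All genes of these classes had medians of 0.652 and 0.349, with 2.22% and 9.48% lower. TNF (6:31575565-31578336), the tumour necrosis factor gene, was at 3.40, 4.63 and 4.35 CPM in SKO and 98.8, 101 and 99.6 CPM in DKO. The groups were far apart, and the log2 fold change was 4.59 ± 0.09 (adjusted p = 2.80e-26, edgeR). CCL2, a monocyte chemoattractant, went from 0.925, 0.707 and 0.997 CPM to a mean of 9.03 ± 1.65 CPM (SD, n = 3). CCL3, a chemokine with near-identical copies, went from a mean of 0.124 to 2.44 CPM and its copy CCL3L1 from 0.621 to 15.1 CPM, which makes the split between them uncertain. Of the 5 NF-kB subunit genes, RELA fell by 0.30 ± 0.05 and NFKB1 by 0.32 ± 0.05 on the log2 scale, NFKB2 rose by 0.59 ± 0.08, and REL (0.06 ± 0.07) and RELB (0.10 ± 0.11) had no call.

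Of the 31 immediate early genes, which respond to growth factor and kinase signals, 19 rose and 2 fell, with a median of 0.620. By level, 4 of them have a mean log2 CPM under 0 and 5 one of 0 to 2, where all genes had medians of 0.652 and 0.349. EGR1 (5:138465479-138469303), a zinc finger factor gene, was at 14.5, 13.2 and 13.8 CPM in SKO and 209.8, 216 and 201 CPM in DKO. That is a log2 fold change of 3.92 ± 0.06 (adjusted p = 1.94e-28, edgeR), and sgControl, at 105, 123 and 126 CPM, lay between them. EGR2 and EGR3 rose by 3.22 ± 0.21 and 3.42 ± 0.13 on the log2 scale, and FOS went from 29.2, 28.3 and 29.2 CPM to 131, 135 and 129 CPM. MYC, also on the list, fell by 0.40 ± 0.04. The immediate early list as a whole had 7 genes higher and 18 lower in SKO against sgControl, where 20.6% of all genes tested were higher and 22.8% lower. In DKO against sgControl it had 17 higher and 10 lower, where 31.9% of all genes were higher and 33.7% lower. These comparisons share their SKO or DKO libraries with the main one. The window before the EGR1 start site (RefSeq, GRCh38.p14, plus strand, chr5:138465339-138465440) holds 2 CArG boxes, the motif bound by serum response factor, in capitals.

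EGR1 upstream: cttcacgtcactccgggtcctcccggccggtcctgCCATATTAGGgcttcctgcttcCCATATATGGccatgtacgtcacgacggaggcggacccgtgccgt

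On either strand of the 250 bases before the start site, a CArG box was found in 2 of the 23 immediate early genes with a promoter in the table and in 1.14% of all promoters. Among the 15 that rose in DKO 1 held a box, which is EGR1, and among the 8 that did not rise 1 held a box.

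Interferon-stimulated genes, the antiviral programme downstream of type I and II interferon, rose from a low level in SKO. Of 70 listed, 68 were tested, 48 rose and 10 fell in DKO against SKO, with a median of 0.477, and 27 rose at least 2-fold. Of all genes 25.3% rose, 28.5% fell and 10.4% rose at least 2-fold. Against sgControl, 2 were higher and 61 lower in SKO, with a median of -1.33 (all genes: 20.6% and 22.8%). In DKO against sgControl, 5 were higher and 53 lower, with a median of -0.908 (all genes: 31.9% and 33.7%). Both comparisons share libraries with the main one. The list's summed level was 4526 to 4612 CPM in sgControl, 2331 to 2391 CPM in SKO and 2494 to 2532 CPM in DKO. The DKO sums thus lay just above those of SKO and well below those of sgControl. By abundance, all 10 members with a mean log2 CPM under 0 and 16 of the 29 over 4 rose. Of all genes in these classes, 20.6% and 21.7% were higher, and 2.22% and 53.6% lower. A member near 0 in SKO can hardly fall, so the count under 0 is not read as a result.

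IFIT1 (10:89392546-89406487), which binds foreign RNA ends, was at 0.296, 0.0336 and 0.344 CPM in SKO, 3.11, 1.60 and 2.09 CPM in DKO and 17.9, 19.5 and 17.7 CPM in sgControl. IFI44L (1:78619902-78646145), a widely used interferon marker, was at 0.185, 0.336 and 0.0344 CPM in SKO, 2.26, 2.63 and 2.37 CPM in DKO and 5.78, 6.93 and 7.54 CPM in sgControl. In both genes the groups did not overlap and DKO lay between SKO and sgControl, with log2 fold changes against SKO of 3.36 ± 0.31 and 3.68 ± 0.32 (adjusted p = 1.34e-10 and 3.36e-11, edgeR). IFI27 had 4 reads over the SKO group and 52 over the DKO group, and the chemokine gene CXCL11 had 0 and 24. With SKO set at a floor of 3 reads, CXCL11 was 11.8-fold higher in DKO, and a floor of as many read pairs would give less. Among the members that fell further, LAP3, an aminopeptidase gene, was at 114, 116 and 121 CPM in SKO and 71.7, 67.2 and 73.1 CPM in DKO, and CMPK2, a mitochondrial nucleotide kinase gene, went from 18.1, 19.2 and 17.4 to 12.6, 10.6 and 13.3 CPM. TRIM14 and IRF1 fell by 0.70 ± 0.04 and 0.46 ± 0.09 on the log2 scale. Neither was lower in SKO than in sgControl, with means of 238 against 208 CPM and 24.1 against 22.5 CPM.

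The core of the interferon-stimulated response element (ISRE), which is GAAA, any 2 bases and GAAA, was searched on both strands of the 250 bases before each start site in the RefSeq table. It was present in 29 of the 53 tested list genes with a promoter there (54.7%) and in 3.07% of all promoters. Among the 35 that rose in DKO 51.4% held it, and among the 18 that did not 61.1%. The matches of 4 of the most increased members are shown, with the pattern or its reverse complement (TTTC, any 2 bases, TTTC) in capitals (GRCh38.p14; chr10:89392472-89392545, chr1:78620274-78620303 and chr14:94110625-94110654 on the plus strand, chr1:89065316-89065345 on the minus strand).

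IFIT1 site: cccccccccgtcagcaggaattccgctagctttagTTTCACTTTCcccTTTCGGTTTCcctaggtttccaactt
IFI44L site: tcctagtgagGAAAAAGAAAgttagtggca
IFI27 site: cagTTTCGGTTTCctgGAAAATGAAAccta
GBP1 site: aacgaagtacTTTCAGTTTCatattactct

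The sites of IFI44L, IFI27 and GBP1 lie before the start site of the promoter table but past an earlier annotated start. They are thus inside the gene as annotated for the counts. A match in these letters is a description and says nothing of binding in these cells.

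**Figure D3:**
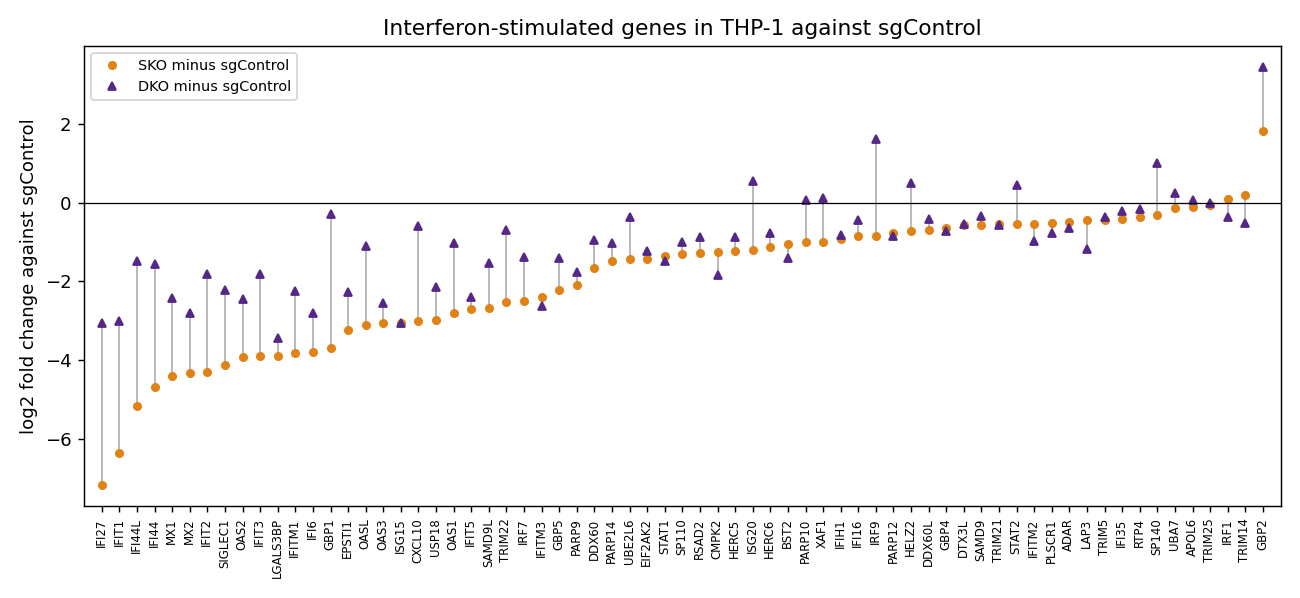
Log2 fold change against sgControl of 67 interferon-stimulated genes in SKO (circles) and DKO (triangles), ordered by the SKO value; CXCL11, with 0 reads in SKO, is left out. Both series use the same sgControl libraries. Most circles and triangles lie below 0, and among the genes on the left the DKO value is nearer to 0 than the SKO value.

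Antigen presentation genes were listed by MHC class. Of 14 tested genes of MHC class II presentation, 10 rose and 2 fell, with a median of 0.363. HLA-DRA (6:32439878-32445046) was at 6.57, 6.96 and 7.05 CPM in SKO and 22.1, 24.1 and 21.3 CPM in DKO, a log2 fold change of 1.71 ± 0.09. CIITA, the master activator of class II genes, had a mean of 2.62 ± 1.00 CPM (SD, n = 3) in SKO and was at 7.45, 7.47 and 8.38 CPM in DKO. Both genes were higher in every DKO library than in any SKO or sgControl library. Of 24 genes of MHC class I presentation, 2 rose and 16 fell, with a median of -0.411. That is 66.7% lower, and 18 of the 24 are over a mean log2 CPM of 4, where 53.6% of all genes were lower. TAPBP, which loads peptide on class I molecules, was at 344, 327 and 316 CPM in SKO and 217, 201 and 198 CPM in DKO. HLA genes have near-identical copies, so their counts are uncertain.

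Monocyte and macrophage genes leaned upward, with 30 of 46 higher, 4 lower and a median of 0.439. By level, 8 of them have a mean log2 CPM under 0 and 6 one of 0 to 2, where all genes had medians of 0.652 and 0.349. ITGAX, the integrin CD11c, was at 50.9, 53.8 and 47.0 CPM in SKO and 140.4, 137 and 137 CPM in DKO, a log2 fold change of 1.45 ± 0.05. TREM1, an activating receptor of myeloid cells, went from 0.943, 0.437 and 0.876 to 4.29, 4.95 and 3.71 CPM, and VCAN, a proteoglycan of classical monocytes, from 24.2, 25.2 and 25.0 to 60.9, 68.7 and 65.7 CPM. TREM2, a lipid receptor of macrophages, went the other way, from 111, 108 and 109.5 CPM to 58.2, 52.2 and 58.9 CPM, and CCR2, the receptor of CCL2, fell by 0.57 ± 0.04 on the log2 scale. Outside the lists, the 15 largest increases included the complement receptor gene CR1, from a mean of 0.460 to 8.79 CPM, and the leukocyte genes CD52, HSH2D and LSP1, with log2 fold changes of 2.93 ± 0.11, 2.92 ± 0.11 and 2.79 ± 0.15.

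Genes of immature granulocytes moved in both directions, 5 higher and 5 lower of 14. PRTN3 (19:840999-848175), the proteinase of azurophil granules, was at 2393, 2174 and 2294 CPM in SKO and 997, 920.0 and 933 CPM in DKO, with sgControl at 2217 CPM. ELANE, the neutrophil elastase gene beside it, fell by 0.70 ± 0.05 on the log2 scale. Progenitor genes were 21.7% higher and 26.1% lower of 23, near the 25.3% and 28.5% of all genes, with a median of -0.003. HOXA9 and HOXA10 were at 41.5 and 29.9 CPM in DKO against 41.6 and 29.8 CPM in SKO.

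**Figure D4:**
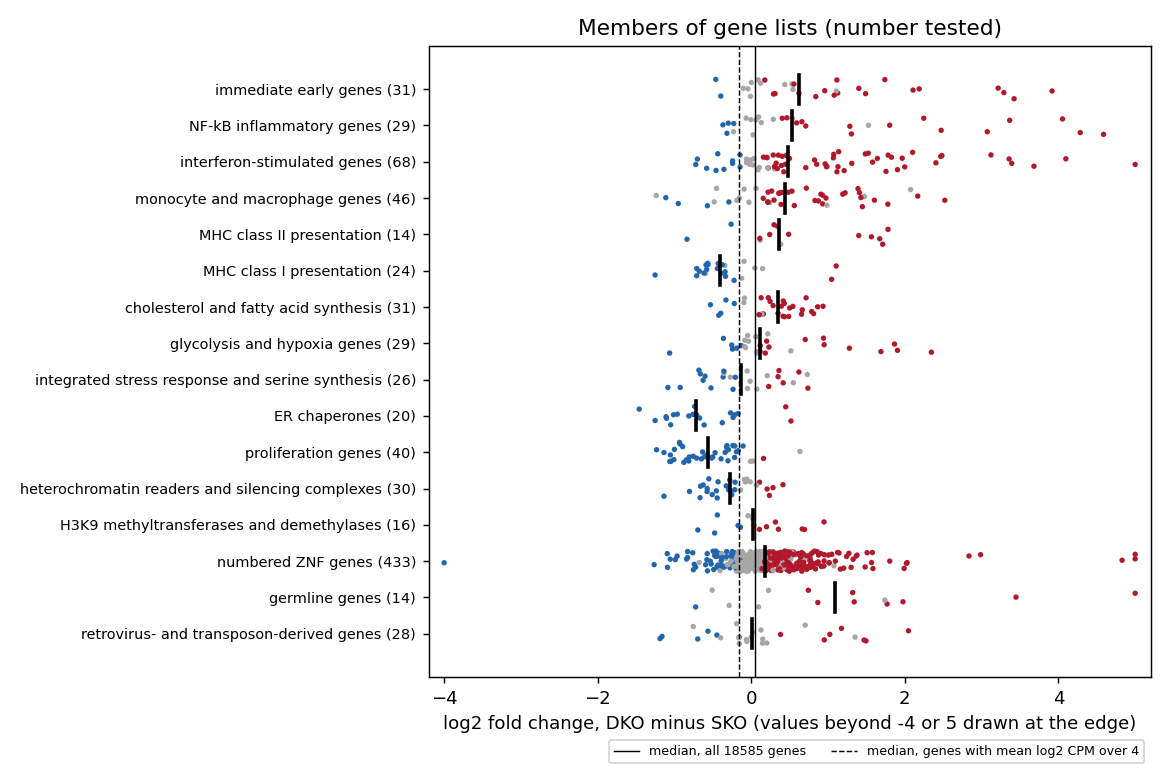
Log2 fold change of DKO against SKO for the tested members of 16 gene lists, red for higher, blue for lower and grey for no call, with a black bar at each list's median. The solid line is the median of all 18585 genes at 0.051 and the dashed line that of genes with a mean log2 CPM over 4 at -0.165; proliferation genes and ER chaperones lie mostly to the left of both.

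Proliferation genes were lower in DKO almost throughout. Of the 40 genes 36 fell and 1 rose, with a median of -0.569, and 39 of the 40 have a mean log2 CPM over 4, a class in which 53.6% of genes were lower. TK1, thymidine kinase, was at 196, 178 and 189 CPM in SKO and 79.4, 77.0 and 82.7 CPM in DKO, a log2 fold change of -1.23 ± 0.05 (adjusted p = 1.20e-17, edgeR). MCM5 and CDC6, which license replication origins, fell by 1.05 ± 0.04 and 1.06 ± 0.05 on the log2 scale. The exception was CENPE, a mitotic kinesin gene, at 0.16 ± 0.06, a call that was lost without any of 4 of the 6 libraries in turn. In SKO against sgControl the list had 12 genes higher and 17 lower, where 20.6% of all genes were higher and 22.8% lower.

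ER chaperone genes fell in 18 of 20 cases (90%), with a median of -0.724. Of the 20, 19 have a mean log2 CPM over 4, a class in which 53.6% of all genes were lower. HSPA5, which encodes the chaperone BiP, was at 1049, 1007 and 1064 CPM in SKO and 499, 499 and 509 CPM in DKO, with sgControl at 1543 CPM. SDF2L1, HYOU1 and MANF fell by 1.46 ± 0.09, 1.11 ± 0.04 and 1.10 ± 0.05 on the log2 scale, and CALR by 1.25 ± 0.04. These genes were thus highest in sgControl and lowest in DKO. EDEM1, which takes misfolded proteins out for degradation, was higher in DKO, at 461, 465 and 469.7 CPM against 315, 342 and 319 CPM.

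Metabolic lists gave mixed pictures. Cholesterol and fatty acid synthesis genes rose in 22 of 31 cases and fell in 5, with a median of 0.348, although 28 of the 31 are over a mean log2 CPM of 4. DHCR7, the last enzyme of cholesterol synthesis, was at 37.0, 33.0 and 36.4 CPM in SKO and 65.9, 58.1 and 62.7 CPM in DKO. The groups did not overlap, and the log2 fold change was 0.81 ± 0.06. PMVK, an enzyme of the mevalonate pathway, fell by 0.53 ± 0.07. Of 29 glycolysis and hypoxia genes 13 rose and 6 fell. VEGFA, the vascular growth factor gene, was at 8.31, 10.5 and 9.71 CPM in SKO and 53.4, 45.6 and 46.4 CPM in DKO. BNIP3, a mitophagy receptor gene, went from 26.7, 25.9 and 30.9 to a mean of 89.8 ± 1.41 CPM (SD, n = 3), above its sgControl mean of 55.9 CPM. PHGDH and PSAT1, the first enzymes of serine synthesis, fell by 1.09 ± 0.07 and 0.93 ± 0.06 on the log2 scale. Their list of stress response genes had 6 higher and 11 lower of 26 (23.1% and 42.3%). Over all genes tested the shares were 25.3% and 28.5%. Of the 26, 14 have a mean log2 CPM over 4, a class in which 53.6% of all genes were lower. The 13 mitochondrially encoded genes, a sign of RNA content and quality, had 12 lower and 1 higher. All 13 have a mean log2 CPM over 4, where 53.6% of all genes were lower. These 13 genes summed to 50430 to 56430 CPM in SKO and 39820 to 40800 CPM in DKO. Their part in the other results was not tested.

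Genes of the heterochromatin machinery were mostly abundant ones. Of 30 readers and silencing complex genes, 27 of them over a mean log2 CPM of 4, 19 fell (63.3%) and 5 rose, with a median of -0.272, and of all genes in that class 53.6% were lower. UHRF1, which guides maintenance DNA methylation, was at 257, 249.8 and 257 CPM in SKO and 117, 119 and 111 CPM in DKO, a log2 fold change of -1.14 ± 0.04. It also stands on the proliferation list. TRIM28, the corepressor recruited by KRAB zinc finger proteins, fell by 0.67 ± 0.04, HELLS, a chromatin remodeller gene, by 0.80 ± 0.07, and LMNB1, the lamin B1 gene, by 0.63 ± 0.04 on the log2 scale. The 16 tested methyltransferases and demethylases of histone H3 lysine 9 had 7 higher and 5 lower. The lower ones include the targeted genes SUV39H1 and SUV39H2 themselves. EHMT2, the enzyme of the mono- and di-methyl marks, fell by 0.44 ± 0.04, SETDB2, another methyltransferase gene of the family, rose by 0.31 ± 0.05, and the demethylase genes KDM4B and KDM7A rose by 0.69 ± 0.05 and 0.95 ± 0.21.

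Numbered ZNF genes, most of which encode zinc finger proteins and many of which sit in clusters on chromosome 19, had 180 higher and 66 lower of 433 tested, with a median of 0.184. On chromosome 19, 117 rose and 16 fell of 220 (53.2% and 7.27%), with a median of 0.332, while on other chromosomes 63 rose and 50 fell of 213. Other genes on chromosome 19 had 292 higher and 319 lower of 1086. The highest of 137 bins of 20 Mb was at 20 to 40 Mb of chromosome 19, with a median 0.225 above that of all genes whose mean log2 CPM was 2 or more, and 0.055 above it when that limit was 4. No chromosome and no bin was more than 0.3 from the median of all genes. Of 28 tested retrovirus- and transposon-derived genes 7 rose and 6 fell, 25.0% and 21.4%, near the shares of all genes. ERV3-1 (7:64990356-65006743), an endogenous retroviral envelope gene, was at 5.44, 7.07 and 5.58 CPM in SKO and 25.1, 25.2 and 24.6 CPM in DKO, whereas ERVMER34-1, another such envelope gene, went from 6.59, 5.87 and 7.01 to 2.81, 3.06 and 2.68 CPM. The files give reads by gene, and transposable elements as such are not analysed here.

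The difference between DKO and SKO was not the same in U937. In a fit of 18 libraries, the difference itself differed between lines for 7786 of 18715 genes (41.6%), 3306 (17.7%) more positive and 4480 (23.9%) more negative in THP-1. In U937 itself 18.3% of genes were higher and 19.6% lower. Interferon-stimulated genes had 45 higher and 10 lower of 69 there, and proliferation genes had 0 higher and 39 lower of 40. The difference itself differed between lines for 17 interferon-stimulated genes that were more positive in THP-1 and 28 more negative, and for 20 and 13 proliferation genes. IFIT1 gave 3.32 ± 0.31 in THP-1 and 2.76 ± 0.20 in U937 on the log2 scale, and the difference between lines did not pass the test (0.56 ± 0.40, adjusted p = 0.294, edgeR). IFI44L and GBP1 rose in THP-1 by 3.65 ± 0.41 and 3.35 ± 0.64 against -3.48 ± 1.01 and -2.17 ± 0.57 in U937. The differences between lines were 7.13 ± 1.02 and 5.52 ± 0.86 (adjusted p = 4.77e-07 and 2.04e-06, edgeR). Both were under 1 CPM in every U937 SKO and DKO library.

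TNF, at 97.7, 99.4 and 98.7 CPM in THP-1 DKO in this fit, was at 5.60, 6.10 and 6.45 CPM in U937 SKO and 2.98, 3.22 and 2.39 CPM in U937 DKO, a difference between lines of 5.62 ± 0.17 (adjusted p = 4.19e-24, edgeR). EGR1 was at 4.47, 4.68 and 4.40 CPM in U937 SKO and 5.09, 3.80 and 5.06 CPM in U937 DKO, where the groups overlapped, and the difference between lines was 3.85 ± 0.13. ALDOC, a glycolytic aldolase gene, rose by 1.87 ± 0.12 in THP-1 and fell by 4.18 ± 0.22 in U937, and VEGFA rose by 2.31 ± 0.07 and 0.18 ± 0.06. Conversely SIGLEC1, an interferon-responsive receptor of macrophages, and HLA-DRA rose more in U937, by 5.43 ± 0.13 against 1.87 ± 0.13 and by 4.04 ± 0.17 against 1.68 ± 0.12. PHGDH fell by 1.12 ± 0.06 in THP-1 and rose by 0.19 ± 0.06 in U937. Of the stress response and serine synthesis list, 1 gene was more positive and 17 more negative in THP-1 of 26, and of cholesterol and fatty acid synthesis genes 4 and 20 of 31. SUV39H1 was at 112, 115 and 108 CPM in U937 SKO and 81.5, 82.3 and 82.3 CPM in U937 DKO, and SUV39H2 at 35.1, 34.7 and 36.2 against 32.9, 34.5 and 29.97 CPM.

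**Figure D5:**
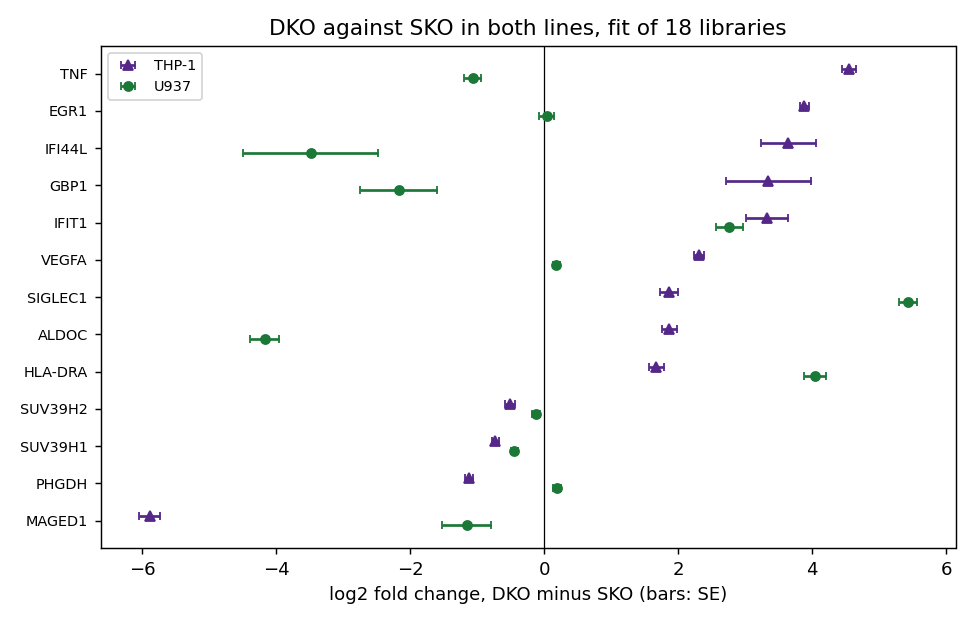
Log2 fold change of DKO against SKO, with standard errors as bars, for 13 genes in THP-1 (triangles) and U937 (circles) from the fit of 18 libraries. TNF, ALDOC, IFI44L and GBP1 lie on opposite sides of 0 in the lines, the 2 values of IFIT1 lie near each other, and SIGLEC1 and HLA-DRA rose more in U937.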

How the data were processed

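PolyA RNA was sequenced in the THP-1 and U937 libraries described above. The authors deposited raw, whole-number read counts per gene. Per the submitters' processing notes, fastp 0.23.4, STAR 2.7.11b, Subread 2.0.6 and hg38 were used. Per the file headers, featureCounts 2.0.6 counted against GENCODE 38 by gene name, without strand and counting reads of a pair singly, so reads of antisense partners cannot be told apart and reads in several places or several genes were left out. No deposited column of the table used was left without a sample; a second deposited count table was not used.

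The tests used edgeR 4.0.16 (R 4.3.3) on the counts: default expression filter by group, scaling by trimmed mean of M-values, a quasi-likelihood fit of group means over the 9 THP-1 libraries (18585 genes) or 18 THP-1 and U937 libraries (18715 genes), and Benjamini-Hochberg adjustment at 0.05. Levels are CPM scaled within the fit, errors of fold changes are SE, and n = 3 libraries per group. Lists carry no test of their own and are given by counts and medians. The scripts were tested on simulated data. Replicate numbers were not treated as pairs: same-numbered libraries correlated at -0.0339 to 0.185 in their deviations. Alternatives were DESeq2 1.42.0 and its size factors, no filter, thinned counts, other libraries in the fit, a replicate block and each library left out.

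The members and the 32 lists were chosen with earlier results of these data known. Genes named are SUV39H1 and SUV39H2, up to 5 members per list and direction, the 15 highest and 15 lowest whose mean log2 CPM was 1 or more and whose groups did not overlap, genes switched on, and the 10 highest and 10 lowest differences between lines. Neighbours of STK31, MAGED1 and ZNF662, NF-kB subunits without a call, IFI44L and GBP1 in U937, and the marker genes were named after their values were seen. PIWIL4 and NFKB2 also fall outside these rules and were named after their values were seen. Promoter sequences are from RefSeq.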

Additional observations from a re-analysis of the deposited data

Results flagged for a closer look

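The DKO minus SKO difference itself differed between THP-1 and U937 for 7786 genes in the fit of both lines (edgeR's quasi-likelihood test of the difference, 3 libraries per group). Among the genes described, the difference (THP-1 minus U937, log2 scale) was positive for IFI44L (7.13), ALDOC (6.04), GBP1 (5.52), TNF (5.62), EGR1 (3.85) and VEGFA (2.13). It was negative for MAGED1 (-4.73), SIGLEC1 (-3.56), HLA-DRA (-2.37), PHGDH (-1.32), SUV39H2 (-0.39) and SUV39H1 (-0.29). IFI44L, GBP1, ALDOC, TNF and PHGDH had opposite signs in the lines, while MAGED1 was already near 0 in U937 SKO. Guide, name code, clone label and depth differ between the lines' groups as well, and line and these cannot be told apart.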

How the results depend on the processing

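All counts of changed genes and of list members given above for leading lists stayed within 1.5 times of the main count under each alternative run. In DKO against SKO, genes higher ranged from 4364 to 5057 and genes lower from 4957 to 5627 over 7 other settings, and from 3997 to 4890 and 4958 to 5516 when each of the 9 THP-1 libraries was left out. With the replicate block 4680 genes were higher and 5361 lower, and 3314 and 4535 for the difference between lines. That difference gave 2647 to 3229 higher and 3989 to 5012 lower when each of its 12 libraries was left out. Interferon-stimulated genes higher in DKO were 46 to 49, and proliferation genes lower 34 to 36. Among named genes no direction changed. The CENPE call was lost with DESeq2 and with all 18 libraries in the fit, and in 4 fits without 1 library. Calls of neighbouring genes were also lost in some fits. XAGE1A was lost without the filter, with the replicate block, with all 18 libraries and without any library in turn but sgControl 2. XAGE1B was lost without SKO 2, DKO 1 or DKO 3, and SHROOM4 with all 18 libraries and without SKO 3 or DKO 1. FAM221A was lost without the filter, with thinned counts, with all 18 libraries and without SKO 1, SKO 2, DKO 1 or DKO 2. The highest chromosome bin moved from 0.225 to 0.055 when genes whose mean log2 CPM was under 4 were left out. Leaving out genes in shifted bins removed none, because no bin was over 0.3. Depth limits calls in low genes, since DKO libraries are the shallowest.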
